A study of Mus musculus with 10 samples.

Results

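The genes described here are 10 immediate early growth response genes of the mouse liver: Fos, Jun, Junb, Jund, Egr1, Klf6, Myc, Ier2, Ier3 and Zfp36. They were taken by name, whatever their values, from 55487 gene identifiers in each of the liver count tables, and each of the 10 was found in both. Immediate early genes are transcribed within minutes of a growth factor, cytokine or stress signal, without need of new protein synthesis, mostly through ERK, JNK and p38 kinases that act on serum response factor and its ETS partners, on CREB and on ATF2. Their products are mainly transcription factors, and their mRNAs are short-lived. In the liver they are best known for the priming phase just after partial hepatectomy (PHx, the surgical removal of lobes after which the remnant regrows), before hepatocytes enter S phase.

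The livers were collected well after that phase. In the diet experiment, male C57BL/6J mice 8 weeks old, as labelled, received a high-fat diet (HFD, 3 libraries) or chow (3 libraries) for 7 days, were operated, and were sampled 40 hours after PHx. In the inhibitor experiment, mice labelled with the same strain, sex and age were given SSO at 40 mg/kg (4 libraries) or its solvent as vehicle (4 libraries) 1 day before PHx and were sampled at 48 hours. The labels do not spell out SSO, a name commonly used for sulfosuccinimidyl oleate, which blocks fatty acid uptake through CD36. Every mouse of these 4 groups had been operated, so no unoperated baseline enters the values. The labels give 8 mice for each arm of the inhibitor experiment and do not say whether its 4 libraries are single animals or pools, and p-values reflect library-to-library spread only.

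Library totals were 31.9 to 33.9 M counts with HFD, 36.7 to 39.9 M with chow, 28.0 to 30.4 M with SSO and 25.2 to 29.8 M with vehicle. The 10 hepatocyte markers were detected in every group and together made 83415 to 126914 CPM, the counts of a gene scaled to a common library total. In the inhibitor experiment the label of sex went against the data, since Xist, the X-inactivation transcript, had 21121 to 49242 counts per library and Ddx3y, Kdm5d, Eif2s3y and Uty, all Y-linked, had 0, whereas the diet libraries had 0 to 21 Xist counts. The vehicle libraries stood apart from each other. On the first principal component of the inhibitor experiment, which held 45.8% of the variance, the scores were -97.3 for vehicle 1 and -92.8 for vehicle 3, against 52.5 for vehicle 2 and -2.89 for vehicle 4, while the SSO libraries lay between 31.8 and 40.5. Results of the 10 genes and of the related gene lists against vehicle are therefore given with and without vehicle 1 and vehicle 3.

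Sequence around the start sites is shown first. Fos, Jun and Klf6 were high in the same vehicle libraries of the inhibitor experiment and Zfp36 was not, and these genes were picked for that contrast. Junb and Ier3 were also high in those libraries. Their windows are not printed and held none of the motifs marked here. A link between the motifs and the levels was not tested. Each line gives the 250 bases before the RefSeq start (GRCm38.p6), 5′ to 3′ on the gene's own strand: chr12:85473640-85473889 on the plus strand for Fos, chr4:95052223-95052472 on the minus strand for Jun, chr13:5861239-5861488 on the plus strand for Klf6 and chr7:28379229-28379478 on the minus strand for Zfp36, whose RefSeq start lies inside the longer GENCODE gene. Capitals mark matches to a TATA box, a partial cAMP response element, an ATF and AP-1 motif, an EGR motif or a CArG box, the site of serum response factor.
Fos: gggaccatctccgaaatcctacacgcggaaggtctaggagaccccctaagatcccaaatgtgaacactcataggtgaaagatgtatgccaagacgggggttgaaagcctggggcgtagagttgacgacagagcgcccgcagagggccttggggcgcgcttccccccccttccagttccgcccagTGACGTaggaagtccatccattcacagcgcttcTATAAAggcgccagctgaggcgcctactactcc
Jun: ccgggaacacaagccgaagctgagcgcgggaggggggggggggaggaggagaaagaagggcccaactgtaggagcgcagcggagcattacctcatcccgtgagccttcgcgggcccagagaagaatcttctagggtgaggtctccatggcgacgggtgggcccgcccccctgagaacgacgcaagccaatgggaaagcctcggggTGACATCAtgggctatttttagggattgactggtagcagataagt
Klf6: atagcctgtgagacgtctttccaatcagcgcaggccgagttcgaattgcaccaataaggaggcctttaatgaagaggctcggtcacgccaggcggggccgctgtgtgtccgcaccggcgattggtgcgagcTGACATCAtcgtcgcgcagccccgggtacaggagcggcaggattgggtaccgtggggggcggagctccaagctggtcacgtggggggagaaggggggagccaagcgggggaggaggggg
Zfp36: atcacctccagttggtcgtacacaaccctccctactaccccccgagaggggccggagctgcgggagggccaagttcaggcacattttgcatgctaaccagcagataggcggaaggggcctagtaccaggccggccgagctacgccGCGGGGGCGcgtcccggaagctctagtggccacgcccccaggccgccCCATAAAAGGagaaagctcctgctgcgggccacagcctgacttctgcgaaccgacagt

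RefSeq windows were matched for 7 of the 10 genes, all but Egr1, Ier2 and Myc. The window of Jund, chr8:70697489-70697738, ends before position 70698949, where its GENCODE gene starts, and does not adjoin that start. A first set of 9 motifs was searched on both strands, with overlapping matches kept. In that set the GC box GGGCGG was in 5 of the 7 windows (32.9% of 27025 promoters), CCAAT was in 4 (34.5%), and TATAAA was in Fos alone (13%). Within these windows Zfp36 alone held the CArG box (1.4%), the EGR motif GCGGGGGCG (2.56%) and the ETS motif CCGGAAG (7.05%). The other EGR motif GCGTGGGCG (0.54%), the AP-1 motif TGANTCA (6.87%) and the cAMP response element TGACGTNA (2.65%) were in none. The remaining 2 motifs were added after those matches and the letters of the windows had been seen, so their counts describe the windows and carry no weight as a search result. Of these, the ATF and AP-1 motif TGACNTCA was in Jun and Klf6 (7.59% of promoters) and the partial cAMP response element TGACGT was in Fos (6.56%). A match describes the letters and shows no binding. Sequence further upstream than 250 bases was not searched, so a motif absent here may lie outside the window.

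AU-rich elements in 3′ untranslated regions (UTRs) are bound by ZFP36, also called tristetraprolin, which recruits the CCR4-NOT deadenylase and shortens the life of the mRNA. In GENCODE M21 transcripts the core heptamer TATTTAT was present in the 3′ UTR of 6 of the 10 genes (25.8% of 21123 protein-coding genes) and was present at least 2 times in 4 of them (9.47%). Ier3 held 4 copies, Zfp36 itself 3, Fos and Klf6 2 each, and Jun and Jund 1 each. The shorter ATTTA was in 9 of the 10 (62.3%), with Ier2 the exception. The sites of Fos, Ier3 and Zfp36 are shown with 8 bases on either side and the heptamer in capitals, with the position of the heptamer counted from the first base of the 3′ UTR; the first 2 sites of Ier3 are 1 base apart.
Fos, position 656: tttcaattTATTTATtaagatgg
Fos, position 680: ttctcagaTATTTATatttttat
Ier3, position 182: ctaattaaTATTTATgtatttat
Ier3, position 190: tatttatgTATTTATgtatatcc
Ier3, position 232: gtatgtaaTATTTATtctaactt
Ier3, position 287: aacacagaTATTTATtacgattt
Zfp36, position 575: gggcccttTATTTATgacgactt
Zfp36, position 590: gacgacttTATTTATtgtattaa
Zfp36, position 615: ttttatagTATTTATatatattg

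The genes are compact. Jun, Junb, Jund and Ier2 have a single exon, as do 4.81% of protein-coding genes. By the GENCODE annotation on GRCm38, Fos lies at chr12:85473890-85477273, Jun at chr4:95049034-95052222, Junb at chr8:84974484-84978718, Jund at chr8:70698949-70700616 and Ier2 at chr8:84661331-84662852. Klf6 lies at chr13:5861482-5870394, Myc at chr15:61985391-61990374, Ier3 at chr17:35821684-35822923 and Zfp36 at chr7:28376784-28380253, while Egr1 is on chromosome 18. Genes on the other strand overlap 52.6% of the exon length of Jund, 7.52% of Junb, 7.28% of Jun and 3.6% of Zfp36. The strand setting of the counting is not given in the sources used here, so the level of Jund in particular is uncertain.

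Levels were compared per kilobase of exon. Zfp36 led in SSO livers with a mean of 34.4 CPM per kb, in vehicle livers with 26.1 and in chow livers with 29.0, and Ier2 led in HFD livers with 28.4. In HFD livers Ier2, Junb, Jund, Zfp36, Egr1 and Jun followed each other between 28.4 and 13.6 CPM per kb, each overlapping its neighbour, and none of them overlapped Klf6, at 3.11. Ier3, which encodes a stress-inducible regulator of survival, was last in HFD livers at 0.903 CPM per kb and in chow livers at 1.22. In SSO livers the first 4 places, Zfp36, Ier2, Jund and Junb, did not overlap their next neighbours, and the other 6 genes lay between 2.63 (Myc) and 0.790 (Fos) CPM per kb with each overlapping the next. In vehicle livers every gene overlapped the next in the order, from Zfp36 down to Fos at 3.33.

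**Figure D1:**
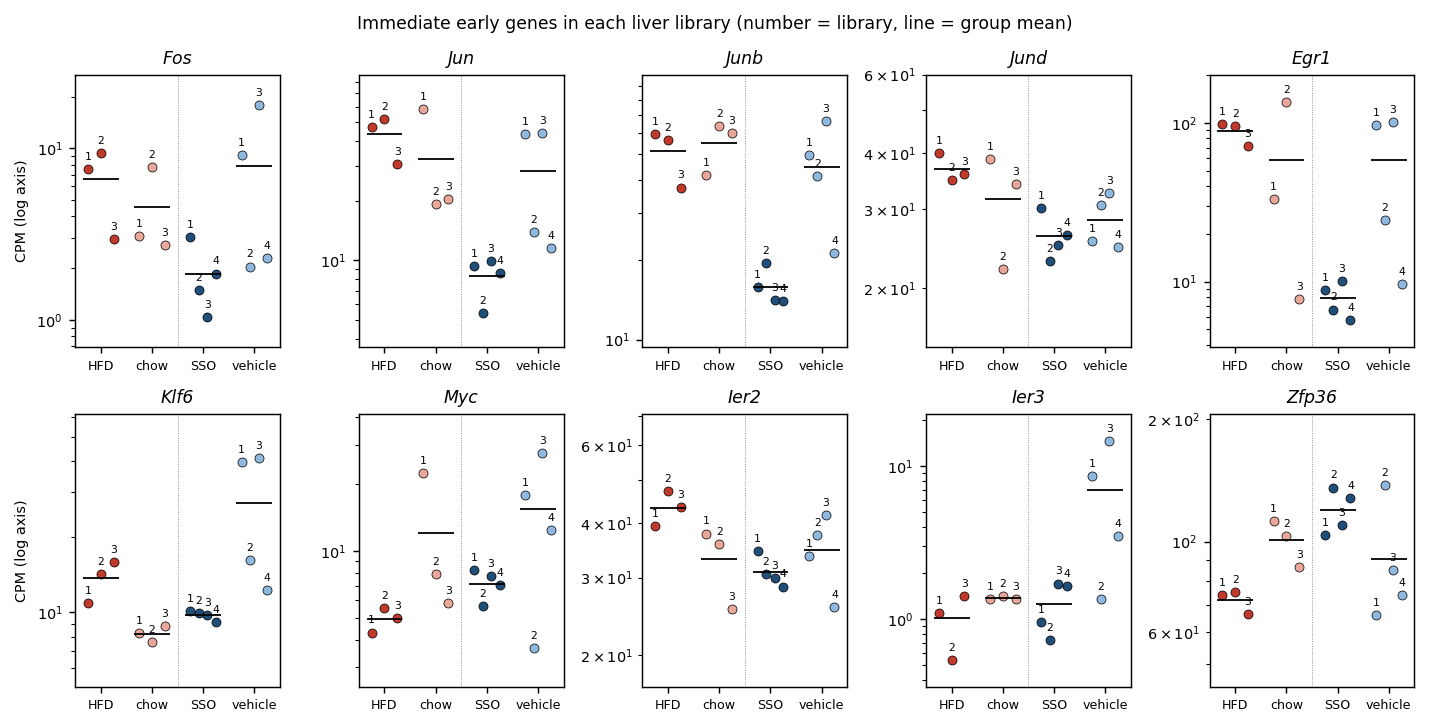
CPM of each gene (log axis) in HFD, chow, SSO and vehicle livers; each point is a library with its number, and the line is the group mean. In the vehicle group, libraries 1 and 3 lie above libraries 2 and 4 for Fos, Jun, Junb, Egr1, Klf6, Myc and Ier3, while the SSO libraries of Klf6 lie within 9.15 to 10.1 CPM.

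The diet comparison asked how 7 days of HFD before surgery bear on the regenerating liver. None of the 10 genes passed the test at an adjusted p under 0.05 (edgeR's quasi-likelihood test with Benjamini-Hochberg adjustment over all 15589 genes tested), where 2.32% of genes did. At an unadjusted p under 0.05 there were 4 of the 10, against 15.0% of all genes: Klf6 and Ier2 with higher values in HFD livers, Zfp36 and Myc with lower ones. The same 4 genes were those whose libraries did not overlap between the groups, against 21.9% of all genes. DESeq2 called 1 of the 10, Klf6, where it called 5.94% of genes, and limma-voom called 0, where it called 2.70%. The median log2 difference of the 10 was 0.31, and that of all genes tested was -0.02.

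Among the AP-1 genes, whose products pair to bind the same short DNA site, Fos had 7.53, 9.40 and 2.95 CPM in HFD livers, against 3.08, 7.74 and 2.74 CPM in chow livers. Jun, the main partner of FOS, had 47.4, 52.1 and 30.5 CPM in HFD livers, against 58.1, 19.3 and 20.3 CPM in chow livers. In both genes the groups overlapped, with a single chow library in the upper range. The log2 differences were 0.55 ± 0.53 for Fos and 0.41 ± 0.47 for Jun (SE, adjusted p = 0.688 and 0.753, edgeR). Without chow 1, the high one for Jun, its log2 difference was 1.14 with an adjusted p of 0.0317 (edgeR). That fit called 681 genes, against 361 with all libraries. Jun passed in 1 of 6 fits that left out a library, with adjusted p up to 0.933 (edgeR) in the others.

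Junb, which can oppose JUN in growth control, had 59.7, 56.7 and 37.4 CPM in HFD livers, against 41.7, 63.7 and 60.2 CPM in chow livers. Jund, the more steadily expressed member of the family, had 40.0, 34.8 and 36.0 CPM in HFD livers, against 38.9, 22.1 and 34.1 CPM in chow livers. Both genes overlapped between the groups, with adjusted p of 0.875 for Junb and 0.660 for Jund (edgeR).

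Egr1, a zinc finger factor downstream of ERK, had 98.0, 96.3 and 71.3 CPM in HFD livers, against 33.0, 135 and 7.75 CPM in chow livers. The chow libraries enclosed the HFD libraries and differed 17.4-fold between the highest and the lowest, so the log2 difference of 0.59 ± 0.94 was within its error (SE, adjusted p = 0.834, edgeR). Leaving out chow 2 gave a log2 difference of 2.12, and leaving out chow 3 gave 0.07; neither passed the test.

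Klf6, a Krüppel-like zinc finger factor first described as an early gene of hepatic stellate cells, had 10.9, 14.2 and 15.9 CPM in HFD livers, against 8.29, 7.59 and 8.79 CPM in chow livers. All HFD libraries lay above all chow libraries. The log2 difference was 0.73 ± 0.18 (SE, unadjusted p = 0.00317, adjusted p = 0.0854, edgeR), and DESeq2 gave an adjusted p of 0.0177.

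Myc, the growth factor-induced regulator of ribosome production and cell cycle entry, had 4.30, 5.56 and 5.02 CPM in HFD livers, against 22.5, 7.90 and 5.84 CPM in chow livers. The groups did not overlap, and chow 1 stood above the other chow libraries. The log2 difference was -1.29 ± 0.49 (SE, adjusted p = 0.282, edgeR) and -0.47 without chow 1.

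Ier2, an early gene whose product acts in the nucleus, had 39.3, 47.2 and 43.3 CPM in HFD livers, against 37.8, 35.9 and 25.4 CPM in chow livers. The groups did not overlap, although HFD 1 and chow 1 lay close together; the log2 difference was 0.39 ± 0.17 (SE, adjusted p = 0.318, edgeR). Ier3 was near 1 CPM throughout, with 1.10, 0.544 and 1.42 CPM in HFD livers, against 1.36, 1.41 and 1.35 CPM in chow livers, and its groups overlapped.

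Zfp36 had 73.8, 75.3 and 66.5 CPM in HFD livers, against 112, 103 and 86.7 CPM in chow livers. All HFD libraries lay below all chow libraries, and the spread within HFD was small. The log2 difference was -0.49 ± 0.14 (SE, unadjusted p = 0.00656, adjusted p = 0.124, edgeR).

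Some marker lists of other cell types did not overlap between the diet groups, and their part in these values was not tested. The 12 Kupffer cell and macrophage markers summed to 262 to 480 CPM in HFD livers and 169 to 363 CPM in chow livers, overlapping, and the 8 cholangiocyte markers to 115 to 129 CPM in HFD livers and 62.2 to 92.9 CPM in chow livers, not overlapping. Of these 8 cholangiocyte markers, 4 had a log2 difference above 0 and 4 below 0, so the sum does not speak for each marker. The 7 erythroid markers lay the other way, at 182 to 291 CPM in HFD livers and 297 to 540 CPM in chow livers, as did the 12 clock genes, which keep circadian time, at 245 to 274 CPM in HFD livers and 389 to 511 CPM in chow livers, neither overlapping. Of these clock genes 4 fell in HFD livers (edgeR), and 8 of the 12 had a log2 difference below 0. The endothelial, stellate cell, lymphocyte, and monocyte and neutrophil lists overlapped between the groups.

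**Figure D2:**
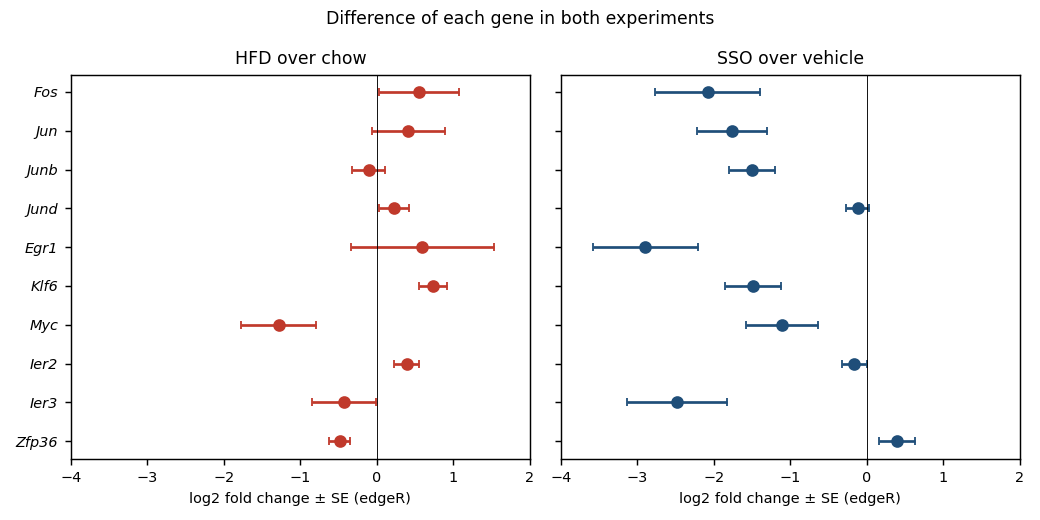
Log2 fold change of each gene with its standard error (edgeR) for HFD over chow and for SSO over vehicle, on the same axis from -4 to 2. The diet values lie between -1.29 and 0.73, and the inhibitor values between -2.90 and 0.40.

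The inhibitor comparison asked how SSO given before surgery bears on the liver at 48 hours. None of the 10 genes passed the edgeR test at an adjusted p under 0.05, where 0.450% of 15788 genes did. At an unadjusted p under 0.05 there were 7 of the 10, every one with the lower mean in SSO livers, against 12.5% of all genes in that direction. The same 7, Fos, Jun, Junb, Egr1, Klf6, Myc and Ier3, were at least 2-fold lower in the fit, as were 7.58% of genes. The libraries of Jun, Junb and Klf6 did not overlap between the groups, against 5.62% of genes with all SSO libraries lower. DESeq2 called 6 of the 10, all lower, where it called 7.66% of genes in either direction. Limma-voom with quality weights called 7, all lower, where it called 2204 of the 15788 genes in either direction, far more than edgeR did. The median log2 difference of the 10 was -1.49, and that of all genes tested was -0.04.

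Fos had 3.05, 1.49, 1.03 and 1.86 CPM in SSO livers, against 9.08, 2.04, 17.9 and 2.30 CPM in vehicle livers. Vehicle 1 and vehicle 3 were high, and vehicle 2 and vehicle 4 lay within the SSO range. The log2 difference was -2.08 ± 0.69 (SE, adjusted p = 0.149, edgeR).

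Jun had 9.36, 5.42, 9.95 and 8.58 CPM in SSO livers, against 43.6, 13.9, 44.0 and 11.5 CPM in vehicle livers. Every vehicle library was above every SSO library, and vehicle 1 and vehicle 3 were the highest by a wide gap. The log2 difference was -1.76 ± 0.45 (SE, adjusted p = 0.111, edgeR).

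Junb had 15.8, 19.4, 14.05 and 14.02 CPM in SSO livers, against 49.6, 41.3, 66.5 and 21.2 CPM in vehicle livers. The groups did not overlap, vehicle 2 lay near vehicle 1, and vehicle 4 was the closest to the SSO libraries. It had the smallest p of the 10, with a log2 difference of -1.50 ± 0.30 (SE, unadjusted p = 0.000450, adjusted p = 0.0674, edgeR). Jund had 23.0 to 30.2 CPM in SSO livers and 24.7 to 32.6 CPM in vehicle livers, with a log2 difference of -0.12 ± 0.15 (SE, adjusted p = 0.686, edgeR).

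Egr1 had 8.84, 6.66, 10.1 and 5.76 CPM in SSO livers, against 97.2, 24.4, 102 and 9.63 CPM in vehicle livers. Vehicle 4 lay inside the SSO range, vehicle 2 above it, and vehicle 1 and vehicle 3 were the highest. The log2 difference of -2.90 ± 0.68 was the largest of the 10 (SE, adjusted p = 0.106, edgeR). Klf6 had 10.1, 9.94, 9.73 and 9.15 CPM in SSO livers, against 39.7, 16.2, 41.1 and 12.2 CPM in vehicle livers. Its SSO libraries were nearly equal and lay below all vehicle libraries, with a log2 difference of -1.49 ± 0.36 (SE, adjusted p = 0.106, edgeR).

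Myc had 8.21, 5.64, 7.70 and 7.04 CPM in SSO livers, against 17.8, 3.68, 27.7 and 12.4 CPM in vehicle livers. Vehicle 2 was the lowest of all 8 libraries and the other vehicle libraries were above every SSO library, so the groups overlapped (log2 difference -1.11 ± 0.47, SE, adjusted p = 0.223, edgeR). Ier3 had 0.966, 0.728, 1.71 and 1.64 CPM in SSO livers, against 8.62, 1.36, 14.6 and 3.496 CPM in vehicle livers. Vehicle 2 lay inside the SSO range, and the log2 difference was -2.48 ± 0.65 (SE, adjusted p = 0.111, edgeR).

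Ier2 and Zfp36, like Jund, did not show the pattern of the other 7 genes. Ier2 had 28.6 to 34.5 CPM in SSO livers and 25.7 to 41.6 CPM in vehicle livers, overlapping, with a log2 difference of -0.16 ± 0.17 (SE, adjusted p = 0.6003, edgeR). Zfp36 had 104, 136, 110 and 128 CPM in SSO livers, against 65.9, 138, 84.9 and 73.9 CPM in vehicle livers. Vehicle 2 was the highest library of all and the other vehicle libraries were below every SSO library, with a log2 difference of 0.40 ± 0.23 (SE, adjusted p = 0.354, edgeR).

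The spread among vehicle libraries was above the median of all genes tested for 7 of the 10 genes. The median standard deviation of log2 CPM of the 10 was 0.97 within vehicle, against 0.47 over all genes. Of the 10, 5 had a standard deviation above 1, as did 17.5% of genes. Within SSO the median was 0.23, against 0.25 over all genes. Within chow it was 0.38, against 0.29, also with 7 of the 10 above. Within HFD it was 0.27, against 0.20, with 6 of the 10 above. Vehicle 3 was the highest vehicle library for 9 of the 10 genes and vehicle 4 the lowest for 6. Centred on the 8 libraries, the mean log2 CPM of the 10 genes was 1.01 in vehicle 1 and 1.40 in vehicle 3, against -0.06 in vehicle 2 and -0.21 in vehicle 4, and it lay between -0.70 and -0.40 in the SSO libraries.

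The outcome of the test turned on single vehicle libraries. Without vehicle 2, edgeR called 8 of the 10 (16.2% of genes): Fos, Jun, Junb, Egr1, Klf6, Myc and Ier3 fell in SSO livers, with log2 differences between -3.15 for Egr1 and -1.43 for Myc, and Zfp36 rose by 0.67. Without vehicle 4 it called 4 of the 10, Jun, Junb, Egr1 and Klf6 (2.24% of genes). Without vehicle 1 and vehicle 3 together it called 0 of the 10 (0.371% of genes), and the log2 differences shrank to -1.11 for Egr1, -0.97 for Junb, -0.95 for Ier3, -0.60 for Jun, -0.54 for Klf6, -0.22 for Fos and -0.19 for Myc. The sign of these 7 differences was the same in each of these fits, while their size was not. Without vehicle 1 and vehicle 3, Jund was at -0.08, Ier2 at -0.02 and Zfp36 at 0.18.

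**Figure D3:**
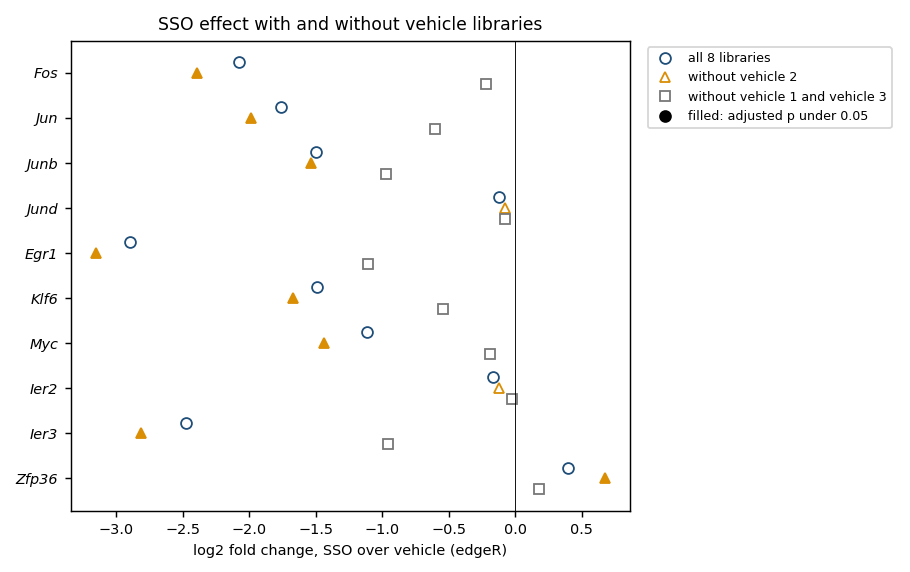
Log2 fold change of each gene for SSO over vehicle (edgeR) with all 8 libraries (circles), without vehicle 2 (triangles) and without vehicle 1 and vehicle 3 (squares); filled symbols have an adjusted p under 0.05. Filled symbols appear only without vehicle 2, for 8 genes, and the squares lie between -1.11 and 0.18.

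Some marker lists of other liver cell types moved with the same vehicle libraries, and their part in the result was not tested. The 12 Kupffer cell and macrophage markers, all detected, summed to 1012 CPM in vehicle 1 and 933 in vehicle 3, against 212 in vehicle 2 and 243 in vehicle 4, with 319 to 540 CPM in SSO livers. The 10 monocyte and neutrophil markers summed to 111 and 166 CPM in vehicle 1 and vehicle 3, against 9.17 and 15.6 CPM in vehicle 2 and vehicle 4, and to 16.0 to 22.0 CPM in SSO livers, where 1 of them was at 0 in all libraries. The 10 stellate cell and fibroblast markers, all detected, summed to 823 and 749 CPM in vehicle 1 and vehicle 3, against 205 and 298 CPM in vehicle 2 and vehicle 4, and to 205 to 306 CPM in SSO livers. For SSO over vehicle (edgeR), the median log2 differences of these lists were -0.31, -1.60 and -0.73, in the same order. Without vehicle 1 and vehicle 3 they were 1.01, 0.91 and -0.02. Of the 12 Kupffer cell and macrophage markers, 10 were then higher with SSO at an unadjusted p under 0.05 (edgeR), and 2 passed. In that fit 1184 of 16692 genes were higher at this p, and 62 passed. The lymphocyte and erythroid lists did not follow vehicle 1 and vehicle 3. From vehicle 1 to vehicle 4 in order, the lymphocyte markers summed to 10.5, 11.5, 13.8 and 4.80 CPM. The erythroid markers summed to 52.5, 197, 76.1 and 95.4 CPM in the same order. Mitochondrial transcripts made 4.99% to 22.5% of counts in vehicle livers, highest in vehicle 2, and 15.2% to 17.6% in SSO livers. In whole-liver RNA, fewer cells of a type and less RNA per cell cannot be told apart.

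**Figure D4:**
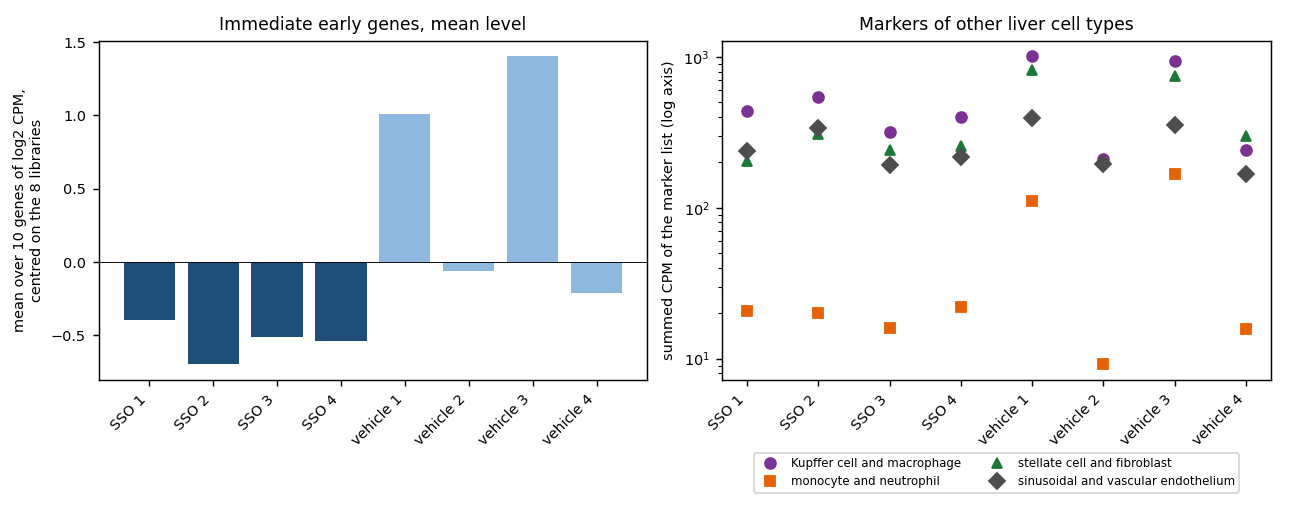
Left, mean of centred log2 CPM over the 10 genes in each inhibitor library; right, summed CPM (log axis) of 4 marker lists in the same libraries. Vehicle 1 and vehicle 3 have the highest gene means, 1.01 and 1.40, and the highest sums of the monocyte and neutrophil, macrophage, stellate cell and endothelial lists.

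Set side by side, the diet and inhibitor differences of the genes were tested against each other in a joint fit of all 14 libraries. The value is the HFD effect minus the SSO effect. The 2 experiments differed in the time after surgery and, by the Xist and Y-linked counts, in sex. The joint fit cannot separate these from the treatments. Of the 10 genes, 1 passed the edgeR test, Klf6, where 3.63% of 17281 genes did. Its log2 difference of differences was 2.21 ± 0.48 (SE, adjusted p = 0.0172, edgeR), and the call held in 13 of 14 fits that left out 1 library, ending without HFD 3 (adjusted p = 0.0516). Without vehicle 1 and vehicle 3 the value was 1.29 with an adjusted p of 0.0186 (2.36% of genes called), over 1.5 times smaller. At an unadjusted p under 0.05 (edgeR) there were 8 of the 10, against 20.4% of genes, with Jund and Myc the exceptions. Without vehicle 1 and vehicle 3, Klf6 alone of the 10 passed. The value then went from 3.48 to 1.71 for Egr1, from 2.62 to 0.79 for Fos and from 2.17 to 1.03 for Jun. It went from 2.04 to 0.53 for Ier3, from 1.38 to 0.88 for Junb, from 0.54 to 0.43 for Ier2 and from -0.90 to -0.65 for Zfp36. With all 14 libraries, DESeq2 called 5 of the 10 (9.13% of genes) and limma-voom 4 (14.9%).

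Other immediate early genes were described from lists chosen with earlier results of these data known. Of 16 further immediate early transcription factors tested in the inhibitor experiment, 0 passed the edgeR test, 6 had an unadjusted p under 0.05 with lower values in SSO livers (12.5% of all genes) and 1 with higher values (7.96%), and DESeq2 called 4 lower and 1 higher (7.66% of all genes in either direction). Their median log2 difference was -0.47, against -0.04 for all genes tested. Dual-specificity phosphatases switch off the ERK and JNK kinases. Of 15 such phosphatases and feedback inhibitors, 0 passed and 6 had lower values at an unadjusted p under 0.05 (edgeR). DESeq2 called 3 of them lower, and the median was -0.55. Of 20 upstream kinases and regulators of ERK, JNK and serum response factor, 0 passed, 5 had an unadjusted p under 0.05 with lower values, the median was -0.16, and DESeq2 gave 1 call. Of 19 tested signalling and secreted genes, 0 passed, 4 had an unadjusted p under 0.05 with lower values, 5 had a log2 difference above 0, the median was -0.17, and DESeq2 called 2. Of 12 tested genes of the MYC network, 0 passed, 1 was higher and 1 lower at an unadjusted p under 0.05, the median was 0.03 and DESeq2 called 0. Of 9 tested further KLF genes, 0 passed, 0 had an unadjusted p under 0.05, the median was 0.16 and DESeq2 called 0. Without vehicle 1 and vehicle 3, 0 genes of these lists passed, and the medians were -0.11 for the transcription factors, -0.21 for the phosphatases and feedback inhibitors, -0.12 for the upstream regulators, -0.05 for the signalling and secreted genes, 0.18 for the MYC network and -0.10 for the KLF genes, against -0.01 for all genes of that fit. At an unadjusted p under 0.05 each list then had 1 or 2 genes with lower values, as did 6.13% of all genes, and the transcription factors had 3 with higher values. The genes with the largest differences, named after their values were seen, included Atf3, a stress-induced factor that pairs with JUN, at -2.87 ± 0.60 (SE, adjusted p = 0.0866, edgeR), and Dusp5, an ERK phosphatase, at -3.14 ± 0.86 (SE, adjusted p = 0.113, edgeR). Without vehicle 1 and vehicle 3 they were at -1.63 ± 0.46 and -0.42 ± 0.60 (SE, adjusted p = 0.182 and 0.809, edgeR).

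Targets of MYC gave no call in the edgeR test. Of 20 MYC target genes, mostly of ribosome production and metabolism, 0 passed the edgeR test in the inhibitor experiment, 8 had lower values in SSO livers with an unadjusted p under 0.05 (12.5% of all genes), DESeq2 gave 6 lower calls, and 18 of the 20 had a log2 difference below 0 (53.0% of all genes). Their median log2 difference was -0.49, against -0.04 for all genes tested. Without vehicle 1 and vehicle 3, 0 passed, 5 were lower and 2 higher at an unadjusted p under 0.05, 10 of the 20 had a log2 difference below 0 (50.9% of all genes of that fit), and the median was -0.04. In the diet experiment 0 of these 20 passed, 1 had an unadjusted p under 0.05 with a lower value, the median was -0.07, and DESeq2 gave 0 calls. Of the ZFP36 family and its deadenylase, 0 of 11 tested passed in either experiment, with medians of 0.17 for HFD over chow and -0.08 for SSO over vehicle; at an unadjusted p under 0.05 there were 1 higher with HFD and 2 lower with SSO, and DESeq2 called 0 in both. Without vehicle 1 and vehicle 3 the median for SSO over vehicle was -0.07, with 0 called. Genes with at least 2 TATTTAT heptamers had a median log2 difference of -0.09 for SSO over vehicle, and genes with none had -0.07.

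In the diet experiment the related genes moved in both directions. Csrnp1, a factor induced by AXIN1 and growth signals, fell in HFD livers, with 9.70, 12.5 and 6.91 CPM in HFD livers, against 29.1, 18.9 and 20.7 CPM in chow livers (log2 difference -1.24 ± 0.25, SE, adjusted p = 0.0407, edgeR). It was the 1 call among 16 tested factors, and it held in 1 of 6 fits that left out a library. Plk2, a polo-like kinase induced early after serum, rose, with 18.9, 15.3 and 18.02 CPM in HFD livers, against 6.67, 6.72 and 6.92 CPM in chow livers (log2 difference 1.36 ± 0.15, SE, adjusted p = 0.00347, edgeR), and held in 6 of 6 such fits. Of the same list of 19 tested signalling and secreted genes, Plk3 fell by 1.01 and Gadd45g, a stress-response gene, fell by 1.19 on the log2 scale, each holding in 4 of 6 fits and ending without HFD 1 or HFD 2.

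Of 15 dual-specificity phosphatases and feedback inhibitors, 2 rose in HFD livers, Spred1 and Spry4, both inhibitors of the RAS and ERK pathway, and 0 fell. Spry4 averaged 11.1 ± 3.16 CPM in HFD livers and 4.58 ± 1.14 CPM in chow livers (SD, n = 3 each, log2 difference 1.28, adjusted p = 0.0446, edgeR), and Spred1 had a log2 difference of 0.61. Each held in 1 of 6 fits that left out a library, Spred1 without chow 1 and Spry4 without chow 3. Of 12 tested genes of the MYC network, Mxd3, a MAX partner expressed in S phase, rose by 3.19 on the log2 scale and held in 6 of 6 fits. The 10 tested further KLF genes all had a log2 difference below 0 with a median of -0.42; 0 passed the edgeR test, 1 was lower at an unadjusted p under 0.05 and DESeq2 called 1.

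**Figure D5:**
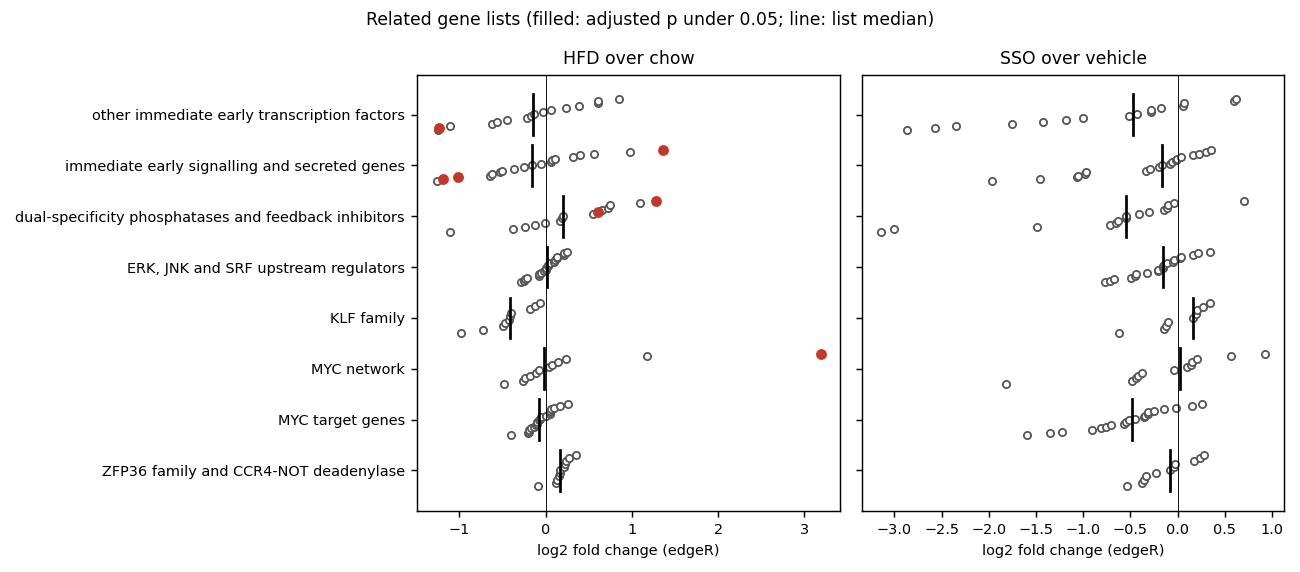
Log2 fold change of each tested gene of 8 related lists (points) for HFD over chow and SSO over vehicle, on separate axes; filled points have an adjusted p under 0.05 and the line is the list median. With HFD, 7 genes are filled, in both directions; with SSO none is, and the median of the further immediate early transcription factors is -0.47.

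Cell cycle genes are given beside the immediate early genes as a measure of the regenerating state. Of 12 G2/M genes, 11 rose in HFD livers and 12 had an unadjusted p under 0.05, with a median log2 difference of 3.14; Mki67, the proliferation antigen, averaged 110 ± 15.2 CPM in HFD livers and 10.8 ± 4.22 CPM in chow livers (SD, n = 3 each, adjusted p = 0.00103, edgeR). In the inhibitor experiment all 12 had lower values in SSO livers at an unadjusted p under 0.05 (edgeR, 12.5% of all genes). Their median log2 difference was -1.52, and DESeq2 called 8 lower. Without vehicle 1 and vehicle 3, 0 passed, 8 of the 12 were lower at an unadjusted p under 0.05 (6.13% of all genes), and the median was -1.20. With all libraries 1 of 12 passed the edgeR test, Cdk1, the kinase that drives mitosis. It had 5.57, 2.11, 3.10 and 2.97 CPM in SSO livers, against 13.8, 8.22, 23.2 and 19.1 CPM in vehicle livers (log2 difference -2.23 ± 0.38, SE, adjusted p = 0.0396, edgeR). Its groups did not overlap, and the call ended without vehicle 1, vehicle 3 or any 1 of the SSO libraries, and without vehicle 1 and vehicle 3 together. Of 10 cytosolic heat shock genes, 6 had lower values with SSO at an unadjusted p under 0.05 (edgeR), and DESeq2 called 6 lower. Their median log2 difference was -0.80, and -0.41 without vehicle 1 and vehicle 3. The 1 edgeR call was Hsph1, which fell by 1.47 with SSO. Its call ended in the same single-library fits, but not without vehicle 1 and vehicle 3 together.

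The mean profile of the 10 genes was compared with 8045 other genes of at least 3 mean log2 CPM in both tables, by the lower of the Pearson correlations over the 6 diet and the 8 inhibitor libraries. The most alike were Timeless, with r of 0.95 in both, Actr3 with 0.93 over diet and 0.96 over inhibitor libraries, Mcm3 with 0.92 and 0.95, Mtpn with 0.96 and 0.91 and Smarca5 with 0.91 in both. These values describe libraries that share depth and group, and they carry no test. None of the 5 passed the edgeR test in either comparison.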

How the data were processed

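Poly(A) RNA of whole liver was sequenced in 14 libraries. The deposited tables hold raw counts per gene, which the authors made, per the submitters' processing notes, with featureCounts 2.0.2 after trimming by Trim Galore 0.6.1 and alignment by HISAT2 2.2.1 on the GRCm38 build. Neither the annotation release nor the strand setting is given in these sources. Column names gave the groups, C in the diet table as chow and C in the inhibitor table as vehicle, and GEO holds 1 record per group. A table of sorted macrophages was not used here. GENCODE M21 gave a symbol to 55227 of 55487 identifiers.

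Counts were filtered with edgeR's filterByExpr, scaled by TMM and tested with the quasi-likelihood test of edgeR 4.0.16 in R 4.3.3, each table alone, with Benjamini-Hochberg adjustment over all genes tested and a threshold of 0.05; the difference of the effects was fitted over all 14 libraries. CPM used TMM-scaled library sizes, and CPM per kb the union of exons. Library depth was 25.2 to 39.9 M counts, and 3 counts correspond to 0.0770 to 0.136 CPM. The test was run on simulated counts before use. DESeq2 1.42.0, limma-voom (limma 3.58.1) with quality weights, other scalings, no filter, a replicate block and fits leaving out libraries were alternatives.

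The 10 genes and the 20 other lists were chosen with earlier results of these data known. The text names all 10 genes, up to 6 genes called from each other list by smallest p, and the 5 most alike genes; Atf3 and Dusp5 were named after their values were seen, and 1 of these lists is not reported here. Promoter windows came from RefSeq (GRCm38.p6) and 3′ UTRs from GENCODE M21; 2 of the promoter motifs were added after the sequences had been read. No pair of libraries within a group agreed within sampling noise.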

Additional observations from a re-analysis of the deposited data

How the results depend on the processing

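For HFD over chow, the count of the 10 genes called was 1 with library size scaling, with no filter and with DESeq2, Klf6 each time, and 0 to 1 when single libraries were left out; the count of all genes called was 672 with no filter, 926 with DESeq2 and 86 to 681 with single libraries left out. For SSO over vehicle, 1 of the 10, Junb, was called with no filter, 6 with DESeq2, 7 with limma-voom and 0 to 8 with single libraries left out; the genes called were 37 with library size scaling, 205 with no filter, 1183 with DESeq2, 2204 with limma-voom and 0 to 2646 with single libraries left out. No gene was called without vehicle 1 or without any 1 of the SSO libraries, 16 without vehicle 3 and 364 without vehicle 4. For the HFD effect minus the SSO effect, 5 of the 10 were called with DESeq2, 4 with limma-voom and 0 to 6 with single libraries left out, and the genes called were 1514 with DESeq2, 2581 with limma-voom and 319 to 2513 with single libraries left out. Library size scaling moved the median log2 difference of all genes by 0.15 for HFD over chow, by -0.16 for SSO over vehicle and by 0.33 for the difference of effects, and split the calls into 336 higher and 60 lower with HFD and 33 higher and 4 lower with SSO, against 249 and 112 with HFD and 50 and 21 with SSO under TMM. The sign of Junb for HFD over chow turned to 0.055 with library size scaling, and ranged from -0.27 to 0.077 when a library was left out. That of Myc for the difference of effects turned to 0.22 with library size scaling and to 0.23 with limma-voom, and ranged from -0.63 to 0.63 when a library was left out. The causes were not tested. With the library number as a replicate block, 206 genes were called for HFD over chow and 47 for SSO over vehicle. Neither count held any of the 10. For the difference of effects 440 were called, with 1 of the 10. Same-numbered libraries correlated between -0.11 and 0.03 in their deviations from the group means. Different-numbered libraries of the 2 groups correlated between -0.15 and 0.17. These values show no pairing by number, and with 3 or 4 libraries per group they cannot exclude it. Fits with 2 vehicle libraries rest on the spread shared with the SSO libraries.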
